A study of Mus musculus with 4514 samples.

Results

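Diploid (2N) hepatocyte nuclei from mouse liver were compared between postnatal day 9 (P9) and postnatal day 18 (P18). The members were the 75 2N nuclei labelled P9 and all 2N nuclei labelled P18, 28 more than at P9, and they were chosen by label. Together they made up 3.94% of the 4514 samples of the series. All mice carried Alb-Cre, a Cre recombinase driven by the albumin promoter of hepatocytes, and Rosa-tdTomato, a Cre-activated red fluorescent reporter; no treatment was given to the groups used here. Hepatocytes were collected by fluorescence-activated sorting and homogenised, and single DAPI-stained nuclei were sorted into lysis buffer for mSTRT-seq, a plate-based method with a barcode for each well. The RNA measured is therefore that of cells with Alb-Cre history, and of their nuclei alone. No label names an animal, so each age is 1 sample of nuclei: the nuclei of an age are not replicates, and their spread is given as a description. For comparison the same series holds 2N nuclei at P0 and P60, tetraploid (4N) nuclei at the same ages (21 at P9, 46 at P18), and whole hepatocytes picked singly at P9, P12, P15 and P18.

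Hepatocytes of the newborn liver still transcribe genes of the fetal liver, among them the plasma protein alpha-fetoprotein and a set of parentally imprinted genes. H19 and Igf2 are neighbours in one imprinted region: Igf2 encodes a fetal growth factor and is read from the paternal copy, and H19 gives a long noncoding RNA from the maternal copy. After birth these genes are switched off, while enzymes of drug, bile acid and amino acid metabolism come on. Nuclear RNA is rich in unspliced and freshly made transcripts, whereas whole-cell RNA is mostly mature cytoplasmic mRNA, so both were set side by side.

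The promoters of 4 genes that differed most, 2 lower and 2 higher at P18, are shown to give their sequence context. Each runs from 250 bases before to 50 bases after the transcript start in RefSeq (GRCm38.p6), 5′ to 3′ on the gene's strand. Capitals mark matches on either strand to 5 motifs: the TATA box TATAAA, the CCAAT box CCAAT, the core GTTAAT of the HNF1 motif, the D-box TTANGTAA and the E-box CACGTG.
Afp, chr5:90490464-90490763, plus strand: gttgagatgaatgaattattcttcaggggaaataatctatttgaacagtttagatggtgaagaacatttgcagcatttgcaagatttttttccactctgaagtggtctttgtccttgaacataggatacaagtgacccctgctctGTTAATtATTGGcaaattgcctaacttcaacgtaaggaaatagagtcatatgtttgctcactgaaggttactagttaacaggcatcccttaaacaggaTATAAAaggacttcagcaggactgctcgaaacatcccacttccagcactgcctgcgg
Meg3, first of 2 starts, chr12:109540746-109541045, plus strand: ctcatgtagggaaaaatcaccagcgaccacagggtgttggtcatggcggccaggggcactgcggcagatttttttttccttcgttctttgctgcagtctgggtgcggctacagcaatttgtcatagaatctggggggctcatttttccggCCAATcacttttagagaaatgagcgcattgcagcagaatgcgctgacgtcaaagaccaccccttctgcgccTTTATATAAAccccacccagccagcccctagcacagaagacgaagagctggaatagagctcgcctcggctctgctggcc
Cyp2c29, chr19:39286835-39287134, plus strand: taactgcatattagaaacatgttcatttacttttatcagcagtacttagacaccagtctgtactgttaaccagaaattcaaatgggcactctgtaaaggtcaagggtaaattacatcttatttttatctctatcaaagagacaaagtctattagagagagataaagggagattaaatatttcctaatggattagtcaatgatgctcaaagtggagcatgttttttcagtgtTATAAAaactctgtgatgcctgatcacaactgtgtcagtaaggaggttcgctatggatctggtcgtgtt
Thrsp, chr7:97417501-97417800, minus strand: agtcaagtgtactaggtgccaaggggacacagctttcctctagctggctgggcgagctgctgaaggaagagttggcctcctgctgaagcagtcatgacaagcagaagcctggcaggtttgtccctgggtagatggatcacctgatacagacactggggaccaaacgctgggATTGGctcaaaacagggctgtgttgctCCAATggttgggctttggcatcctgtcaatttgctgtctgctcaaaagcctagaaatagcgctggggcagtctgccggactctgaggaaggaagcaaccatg
The Afp promoter held an HNF1 core directly upstream of a CCAAT box, and a TATA box. Meg3 held a CCAAT box and 2 overlapping TATA matches on opposite strands, Cyp2c29 a TATA box alone, and Thrsp 2 CCAAT boxes and no TATA match. Among 32817 promoters of 300 bases, 13.6% held a TATA box, 37.4% a CCAAT box, 7.10% an HNF1 core, 2.32% a D-box and 7.15% an E-box. Of the genes that passed the test described below, 91 that rose and 62 that fell had a promoter in the table. The shares below are of promoters, of which a gene can have more than 1, and differences between the sets were not tested. The HNF1 core stood in 13.2% of the promoters of the former (17 promoters) and 2.11% of those of the latter (2 promoters). The D-box stood in 6.202% (8 promoters) and 0%, and the TATA box in 19.4% and 9.47%. The E-box went the other way, with 6.98% and 12.6%. The CCAAT box stood in 41.1% and 36.8%, beside 37.4% of all promoters. These are matches of letters and not measured binding sites. No promoter was read for H19 or Auts2.

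The labelled cell type was checked against hepatocyte markers. Of 16 such genes 15 were abundant enough to describe, and the list's summed level was 32120 CPM (counts of a gene per 1000000 counts of the nucleus) at P9 and 33289 CPM at P18. Alb, which encodes albumin, averaged 8803 CPM at P9 and 10393 CPM at P18 and was counted in every nucleus of both ages. Trf, the transferrin gene, was listed at 0 in every nucleus although whole cells held 16283 CPM at P9 and 9216 CPM at P18. It was 1 of 53 genes, of 1361 at 100 CPM or more in whole cells, that were listed at 0 in all 865 nuclei of the table, so a gene at 0 throughout the nuclei may be missing from the counting and is not read as silent. Lists of markers of other cells were lower than the hepatocyte list. Their summed levels at P9 and P18 were 306.6 and 154.1 CPM for 14 erythroid genes and 98.8 and 58.9 CPM for 18 endothelial genes. They were 15.2 and 39.7 CPM for 15 macrophage genes and 206.5 and 115.02 CPM for 15 stellate cell genes. For 12 cholangiocyte genes they were 556 and 253.8 CPM, and for 18 lymphocyte and neutrophil genes 16.3 and 73.9 CPM. Of their members, between 1 and 6 per list were at 0 counts at P9 and between 0 and 4 at P18; the highest single nucleus reached 5083 CPM on the erythroid list at P9, mostly Tfrc, and 3258 CPM on the stellate list at P18. No member of these 6 lists passed the test described below, and their part in the results was not tested.

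Depth was similar at both ages in the median and broad within them. The P9 nuclei held 2466 to 474987 counts (median 96615) and the P18 nuclei 5298 to 737398 (median 95791), 8523399 and 13979287 counts in all. Genes detected per nucleus had a median of 3216 at P9 and 3843 at P18; after thinning to 20000 counts, which left 67 and 93 nuclei, the medians were 2404 and 3132. The median ratio of gene counts to counts of the ERCC spike-in RNA was 37.5 at P9 and 9.29 at P18. In the summed counts, however, ERCC made up 4.32% at P9 and 3.27% at P18. The 2 measures point in opposite directions, so the RNA content of a nucleus is not read from them. No 2 nuclei had identical counts. Xist was at 0 in every nucleus of both ages and the Y-linked Ddx3y was measured at both, at 157.3 and 113.8 CPM.

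Levels below are means over nuclei of CPM without ERCC, and differences are log2 of the P18 level plus 1 over the P9 level plus 1. Of 40824 genes, 7996 had a mean of the 2 levels of at least 10 CPM and were detected in at least 5% of nuclei. At P18, 979 of them (12.2%) were at least 2-fold higher and 847 (10.6%) at least 2-fold lower, and the median difference was 0.003. With 1 sample per age these counts carry no test. Counts for gene lists below are to be set beside these shares, and list calls beside the shares of the test that follows. The words rose and fell are kept for genes that passed edgeR's quasi-likelihood test, which compared P18 with P9 across 8 pools of summed counts (2N and 4N nuclei at 4 ages, with age and ploidy as terms) and adjusted over all 13025 genes tested. At an adjusted p under 0.05, 1.05% of them rose and 0.691% (90 genes) fell. That test draws on the 4N pools too, and pools of one age may come from the same animals. The p-values therefore speak of how far the pools scatter and not of animals. A smaller share of genes was called, higher and lower alike, without the 4N pool of P9 or of P18. Without the 2N pool of either age the shares were larger. Leaving out the P9 4N pool reduced the calls to 0.514% higher and 0.326% lower. Leaving out either P0 pool or either P60 pool raised them to between 1.58 and 1.78% higher and between 0.976 and 1.15% lower, and leaving out the P9 2N or P18 2N pool gave 1.59 and 1.55% higher.

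H19 fell but did not vanish. The gene lies at chr7:142575529-142578143 on the minus strand of GRCm38 and is annotated as a long intergenic noncoding RNA. In the 75 P9 nuclei its level ran from 0 to 4933 CPM with a median of 675 CPM and a mean of 972 ± 886 CPM (SD over nuclei). In the P18 nuclei it ran from 0 to 1971 CPM with a median of 0 and a mean of 88.8 ± 254.2 CPM. The ranges overlapped: 3 P18 nuclei stood at or above the P9 median, and 10 P9 nuclei stood above the highest P18 nucleus. H19 was counted in 74 of 75 nuclei at P9 (98.7%, exact 95% interval 92.8 to 99.97%) and in 50 at P18 (48.5%, 38.6 to 58.6%). Thinned to 20000 counts these shares were 94.03% and 26.9%. The 5 highest P18 nuclei carried 55.5% of the P18 level, so the remaining signal sat in few nuclei. Across the P18 nuclei the H19 level went with depth to some degree (Spearman's rho 0.40 with total counts over all P18 nuclei, a description). The mean was 10.9-fold lower at P18, and the fitted difference was -4.16 ± 0.64 (SE, adjusted p = 0.0033). Without the ploidy term the adjusted p was 0.0671. In 4N nuclei H19 went from 832 to 11.6 CPM. Whole cells held 2198 CPM at P9, 2181 at P12, 602 at P15 and 386 at P18, and 96.5% of P18 cells had a count.

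Igf2 reached a lower level than H19. The gene lies at chr7:142650766-142666816 on the minus strand. At P9 it ran from 0 to 2087 CPM over nuclei with a median of 244.7 CPM, and at P18 from 0 to 26.7 CPM with a median of 0. Every P18 nucleus lay below the P9 median, and 60 of the 75 P9 nuclei lay above the highest P18 nucleus. Counts were found in 68 of 75 nuclei at P9 (90.7%, 81.7 to 96.2%) and in 7 at P18 (6.80%, 2.78 to 13.5%). The means were 334.96 ± 370 and 0.597 ± 3.03 CPM (SD over nuclei), 561-fold lower at P18, and Igf2 fell by 10.00 ± 0.63 in the fit (SE, adjusted p = 3.97e-06). In whole cells it was at 1501 CPM at P9, 1150 at P12, 173.2 at P15 and 18.7 at P18, with a count in 58.8% of P18 cells. From nucleus to nucleus at P9 the levels of the 2 neighbours had a rho of 0.04 over 75 nuclei, 67 of which held counts of both.

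**Figure D1:**
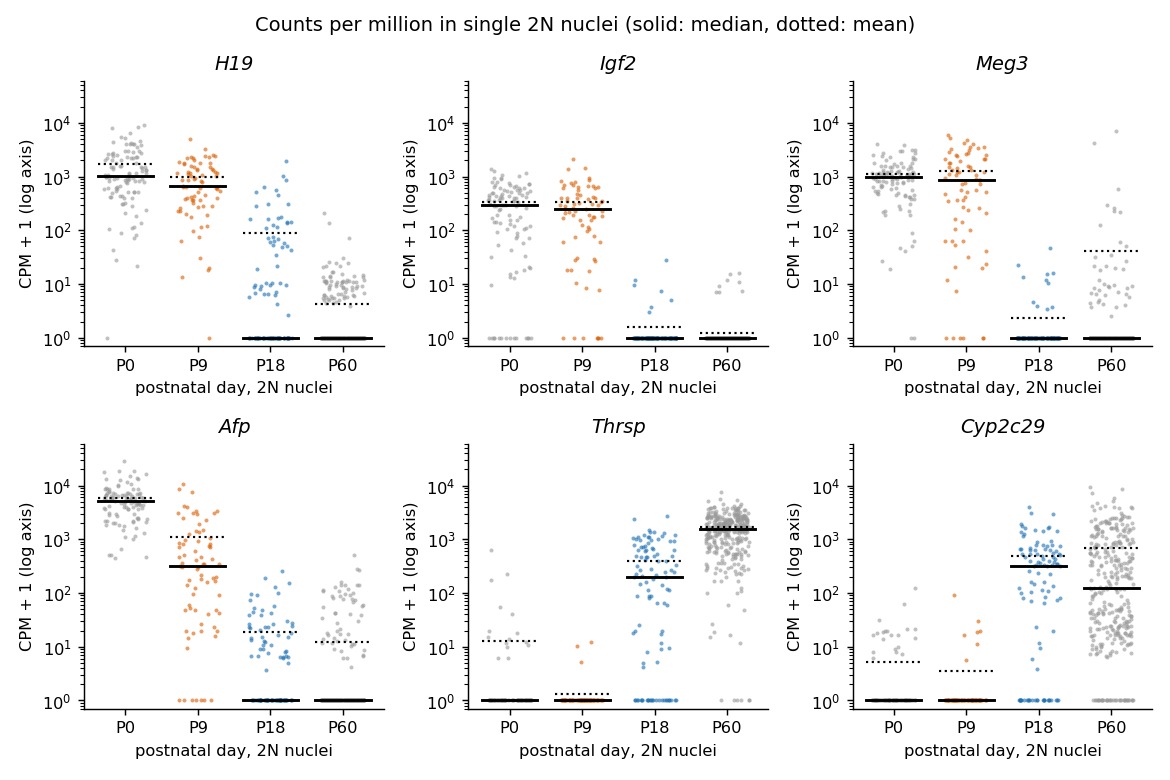
CPM plus 1 (log axis) of 6 genes in single 2N nuclei at P0, P9, P18 and P60; each point is a nucleus, solid bars are medians and dotted bars means. For H19, Igf2, Meg3 and Afp the median is 0 at P18, and for Thrsp and Cyp2c29 the median is 0 at P9 and 194.8 and 318.3 CPM at P18.

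Other imprinted growth genes fell with them. Of 28 imprinted genes listed, 14 were abundant enough to describe; 9 were at least 2-fold lower, none at least 2-fold higher, and the median difference was -2.66, against 0.003 over all genes. Of 24 tested, 8 fell and none rose: H19, Igf2, Meg3, Rian, Peg3, Grb10, Sgce and Zim1. Meg3 and Rian are long noncoding RNAs of the maternal Dlk1-Dio3 region, and Mirg is a microRNA host transcript there. Meg3, at chr12:109541001-109571726 on the plus strand, ran from 0 to 5951 CPM at P9 with a median of 849 CPM, and from 0 to 45.05 CPM at P18 with a median of 0. It was counted in 69 of 75 nuclei at P9 and 11 at P18, and 62 P9 nuclei exceeded the highest P18 nucleus. Its mean went from 1274 to 1.37 CPM, and it fell by 9.95 ± 0.43 in the fit (SE, adjusted p = 6.66e-08). Whole cells held little Meg3 at any of these ages, 30.1 CPM at P9 and 1.45 CPM at P18. Rian went from 73.9 to 1.29 CPM. Mirg, at 64.5 CPM in 12 nuclei at P9 and with a single count at P18, did not pass (adjusted p = 0.0778).
Grb10, which encodes an adaptor that restrains insulin and growth factor signalling, went from 1687 to 130 CPM. Peg3, a paternally expressed zinc finger gene, went from 624 to 85.001 CPM. Both were still counted in most P18 nuclei, 62.1% for Grb10 and 58.3% for Peg3, unlike Igf2 and Meg3. Some members did not pass: Slc38a4, an amino acid transporter gene, differed by -0.08, and Igf2r, the receptor that clears Igf2, by 0.96.

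Fetal liver genes were lower almost throughout. Of 10 described, 9 were at least 2-fold lower and none higher, with a median of -2.57; of 24 tested 7 fell, namely Afp, Gpc3, Fabp5, Igf2bp3, A2m, Lpl and Igdcc4, and none rose. Afp, the fetal counterpart of albumin (chr5:90490737-90508907, plus strand), ran from 0 to 10668 CPM at P9 with a median of 317.9 CPM. At P18 it ran from 0 to 256.3 CPM with a median of 0. Its mean went from 1082 to 18.02 CPM, 60.05-fold lower, and it fell by 6.07 ± 0.41 in the fit (SE, adjusted p = 4.43e-06). All P18 nuclei lay below the P9 median, but 49 of them still held a count. Whole cells went from 10647 CPM at P9 through 3228 at P12 and 179.1 at P15 to 104.2 at P18.
Gpc3, a cell-surface proteoglycan of fetal liver, went from 302.4 to 10.9 CPM in 2N nuclei. Igdcc4, an immunoglobulin-superfamily membrane protein gene, went from 72.95 to 0.228 CPM, and 5 of its 6 P18 counts came from 1 nucleus (83.3%). A2m went from 18.9 to 1.89 CPM. The call was lost for Igdcc4 without the P9 2N pool (adjusted p = 0.0596) and for A2m without the P0 2N pool (0.0539) or without the ploidy term (0.119).

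The fetal and imprinted genes together took 0.253 to 2.25% of a nucleus' counts at P9 (median 0.857%) and 0.000896 to 0.674% at P18 (median 0.169%). Every P18 nucleus was below the P9 median and 83 were below the lowest P9 nucleus. The medians were 1.47% at P0 and 0.174% at P60, so for both lists together the P18 median was close to that at P60. The P9 median lay between those at P0 and P18. Taken singly, the 2 lists differed in course. Imprinted growth genes had medians of 0.699, 0.650, 0.116 and 0.144% at P0, P9, P18 and P60. For fetal liver genes they were 0.759, 0.229, 0.0516 and 0.0197%. Within P9, Afp and H19 levels had a rho of 0.04 over 75 nuclei, so the level of one said little of the other in the same nucleus.

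**Figure D2:**
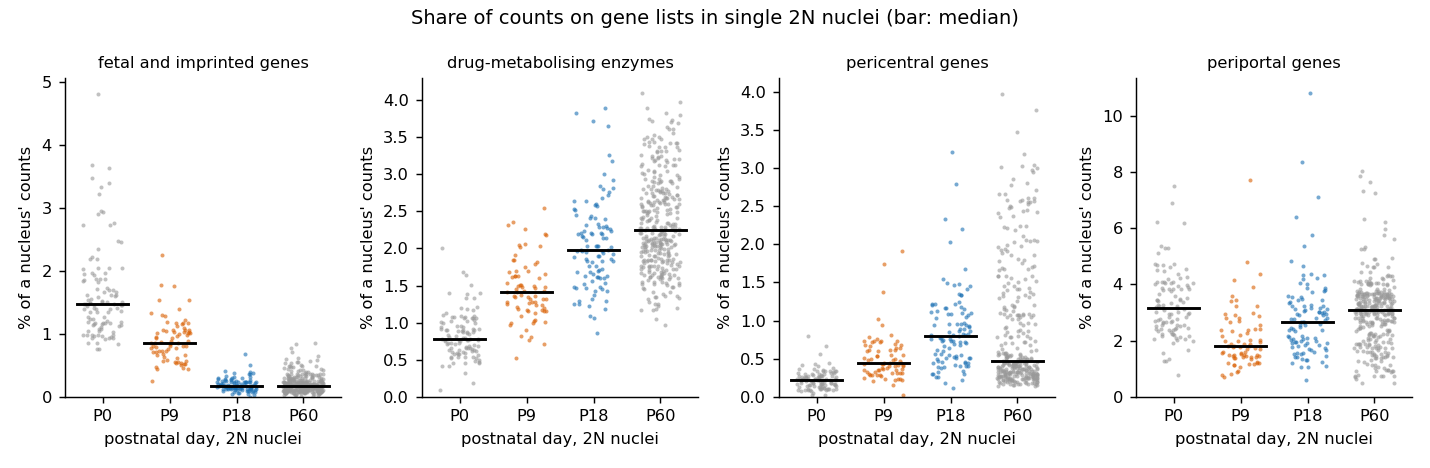
Share of each 2N nucleus' counts (percent, linear axis from 0) on 4 gene lists at P0, P9, P18 and P60; points are nuclei and bars medians. Fetal and imprinted genes have medians of 0.857% at P9 and 0.169% at P18, and drug-metabolising enzymes 1.41% and 1.98%.

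Several other genes among the 12 largest decreases encode proteins best known from other tissues. Auts2, a nuclear regulator studied in neurons, went from 2139 to 20.7 CPM, with counts in 73 of 75 nuclei at P9 and 29 (28.2%) at P18. It fell by 8.02 ± 0.97 in the fit (SE, adjusted p = 0.000633). Grip1, a scaffold protein of synapses, went from 1200 to 60.7 CPM, and Atp8a2, a phospholipid flippase gene, from 536 to 12.8 CPM. Both fell (adjusted p = 0.000342 and 4.04e-05). In whole cells all 3 were low at P9: 25.7 CPM for Auts2, 3.29 for Grip1 and 13.9 for Atp8a2. These genes were thus plain in nuclear RNA and scarce in whole-cell RNA.
Soat1, which esterifies cholesterol, went from 74.4 to 1.597 CPM, and Nckap5 from 144.2 to 5.47 CPM; both fell. Rcn2, a calcium-binding protein gene of the secretory pathway, went from 54.7 to 2.46 CPM in 2N nuclei and from 0.3899 to 9.19 CPM in 4N nuclei, and did not pass (adjusted p = 0.675).

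The largest increases were in metabolic and secreted-protein genes. Cyp2c29, a cytochrome P450 of the pericentral zone, had a mean of 2.51 CPM at P9 and 484 CPM at P18, where 77 nuclei (74.8%) held a count and the median was 318.3 CPM. At P9 the highest nucleus had 90.95 CPM, and 65 P18 nuclei exceeded it. It rose by 4.43 ± 0.88 on the log2 scale (SE, adjusted p = 0.0189) with an adjusted p of 0.118 without the ploidy term. Whole cells held 37.5, 152.1, 514 and 937 CPM at P9, P12, P15 and P18.
Thrsp, a regulator of fatty acid synthesis, had 3 counts at P9 and a mean of 400 CPM at P18, with 78 nuclei (75.7%, 66.3 to 83.6%) positive. The P18 nuclei ran from 0 to 2703 CPM with a median of 194.8 CPM, and 71 of them exceeded the highest P9 nucleus at 11.1 CPM. The ratio of pooled levels was 910 with an exact 95% counting interval of 311.1 to 4413, which shows how little the 3 P9 counts fix it. Thrsp rose (adjusted p = 0.0152) and was at 1671 CPM in P60 2N nuclei, and 4N nuclei went from 35.6 to 532 CPM. Prodh, proline dehydrogenase of the mitochondrion, had 2 counts at P9 and a mean of 112.2 CPM at P18 and rose (adjusted p = 0.000342). Sntg2, a syntrophin gene, was at 0 counts at P9 and 150.8 CPM at P18. Its level in the summed counts of the P18 nuclei, 135.5 CPM, was at least 385-fold higher than a floor of 3 counts over the summed P9 nuclei, and the exact 95% counting interval of the ratio began at 312.7. Aldh1a1, which makes retinoic acid, went from 1.06 to 124.7 CPM, Gda, guanine deaminase, from 1.08 to 107.1 CPM, and Slc22a30, an organic anion transporter gene, from 6.01 to 317.3 CPM; all 3 rose.

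Drug-metabolising enzymes were higher on balance. Of 46 described, 25 were at least 2-fold higher and 3 lower, with a median difference of 1.08. Of 50 tested, 14 rose and none fell: Cyp2c29, Cyp2c38, Cyp2c50, Cyp2c54, Cyp2c67, Cyp2e1, Ugt2a3, Sult1a1, Aox1, Fmo5, Ces1d, Ces3a, Ces3b and Aldh1a1. The Cyp2c genes are near-identical copies of each other, and reads may be divided among them. Cyp2c38 is a case in point of uneven signal, since 1 nucleus held 85.1% of its P18 counts. Ces3b, a carboxylesterase gene, had no P9 count and 35.2 CPM at P18 in 31 nuclei, at least 95.1-fold higher in summed counts against the same floor (counting interval from 77.05). The list took 1.41% of a nucleus' counts at P9 and 1.98% at P18 in the median; 92 P18 nuclei were above the P9 median and 19 above the highest P9 nucleus.

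Bile acid genes were higher in part. Of 21 described, 6 were at least 2-fold higher and none lower, beside 12.2 and 10.6% over all genes. Of 22 tested 3 rose: Cyp27a1, Slco1a4 and Baat. Slco1a4, a bile acid uptake carrier, went from 42.5 CPM in 22 nuclei to 607 CPM in 98 nuclei (rose by 2.75 ± 0.41, SE, adjusted p = 0.00267). Baat, which joins bile acids to taurine and glycine, went from 14.0 to 125.1 CPM, and its call was lost without the ploidy term (adjusted p = 0.0976). Cyp7a1, the rate-limiting enzyme of the classical pathway, was at 27.4 and 211.6 CPM and did not pass (adjusted p = 0.104). Cyp7b1, of the alternative pathway, had 2 counts at P9 and 42.1 CPM at P18, and did not pass (adjusted p = 0.518); in 4N nuclei it was at 51.45 and 51.01 CPM.

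Urea cycle and amino acid genes were mostly higher. Of 37 described, 15 were at least 2-fold higher and 3 lower, with a median of 0.63. Of 39 tested, 10 rose (Cps1, Ass1, Asl, Arg1, Gpt, Gpt2, Tat, Tdo2, Prodh and Aass) and 3 fell (Asns, Psat1 and Agxt). The first 4 are enzymes of the urea cycle. Cps1, its entry step, was the most abundant of them and went from 1419 to 4144 CPM; it rose by 1.32 ± 0.24 (SE, adjusted p = 0.0118). The Cps1 call was lost without the P9 2N pool (adjusted p = 0.0936) or the P9 4N pool (0.0808). Ass1 went from 399 to 1038 CPM, Asl from 240.9 to 999 CPM and Arg1 from 475 to 1530 CPM. The genes that fell include 2 that make amino acids: Asns, asparagine synthetase, at 21.7 CPM in 12 nuclei at P9 with a single count at P18, and Psat1, of serine synthesis, at 11.7 and 0.806 CPM.

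Genes of fatty acid synthesis passed the test in both directions. Of 17 described in that list, 6 were at least 2-fold higher and 2 lower; of 19 tested 5 rose (Acacb, Elovl6, Scd1, Thrsp and Lpin1) and 2 fell (Elovl5 and Pnpla3). Lpin1, a phosphatidate phosphatase, went from 113.6 CPM in 43 nuclei to 751 CPM in 99.03% of nuclei (adjusted p = 0.000349). Pnpla3, a lipid-droplet lipase gene, went from 117.6 to 9.13 CPM, and its call was lost without the P9 4N pool (adjusted p = 0.161). Fasn, fatty acid synthase, was at 5.37 and 39.6 CPM and did not pass (adjusted p = 0.163).
In fatty acid oxidation and ketogenesis 7 of 33 were at least 2-fold higher and 5 lower, beside 12.2 and 10.6% over all genes. Of 36 tested 2 rose, Plin5 and Angptl4, beside 1.05% over all genes. Fgf21, a fasting hormone gene, was at 119.2 CPM at P9 and 6.75 CPM at P18 and narrowly missed the threshold (adjusted p = 0.0521). The call was lost without the P9 4N pool for Plin5 (adjusted p = 0.097) and Angptl4 (0.0793), and for Plin5 also without the P18 4N pool (0.192).
In glucose handling 6 of 21 were at least 2-fold higher and none lower, beside 12.2 and 10.6% over all genes, and 2 of 24 rose. One of them, Ppp1r3b, which targets a phosphatase to glycogen, went from 144.6 to 549 CPM (adjusted p = 0.00379). The Ppp1r3b call was lost without the P9 4N pool (adjusted p = 0.0608).

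Cholesterol synthesis differed between nuclei and cells in its median. Of 14 described genes, 5 were at least 2-fold higher and 1 lower in 2N nuclei, with a median of 0.56; in whole cells none was higher and 8 were lower, with a median of -1.20. Idi1, an isomerase of the pathway, was at 10.7 and 25.3 CPM in nuclei and differed by -2.39 in cells. None of 21 genes passed edgeR in nuclei, and the difference between nuclei and cells was not tested.

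**Figure D3:**
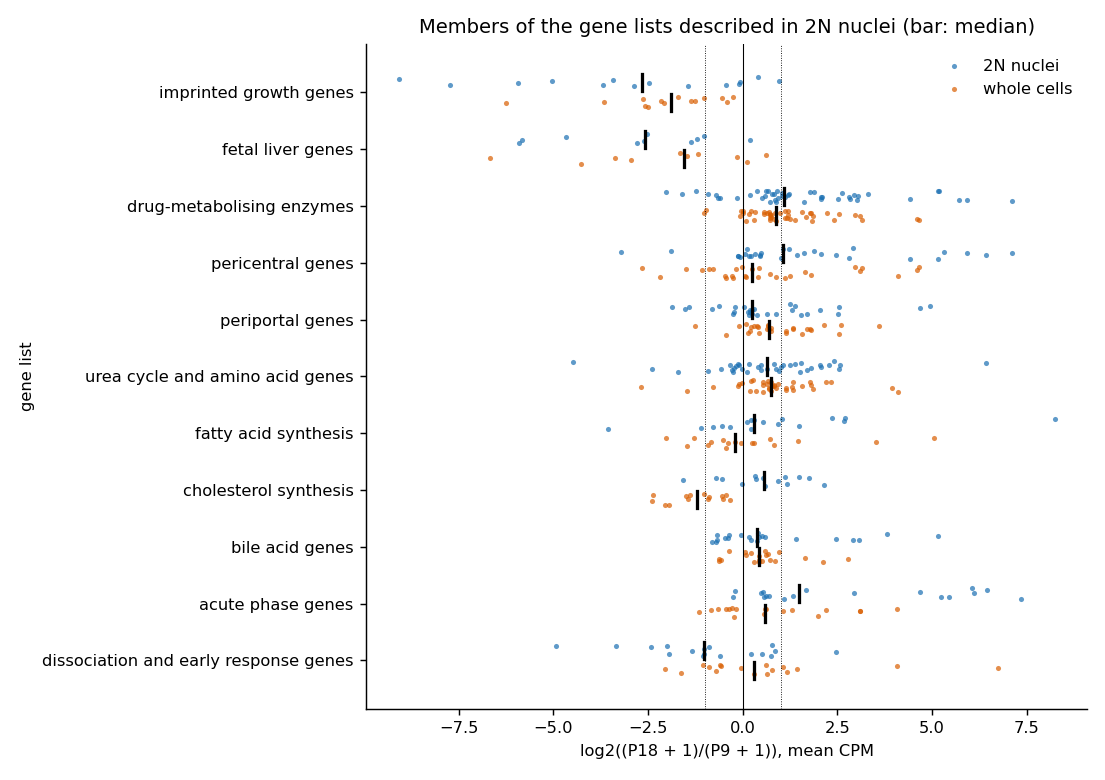
Difference between P18 and P9 (log2, mean CPM plus 1) of the described members of 11 gene lists in 2N nuclei (blue) and whole cells (orange); black bars are medians and dotted lines mark 2-fold. The medians of imprinted and fetal genes lie left of 0 in both, at -2.66 and -2.57 in nuclei. Some members lie right of 0, such as Igf2r (0.96) and Mbl1 (0.18) in nuclei. Cholesterol synthesis has medians of 0.56 in nuclei and -1.20 in cells.

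Both zones of the liver lobule were represented. Pericentral genes, expressed near the central vein, were at least 2-fold higher for 16 of 29 described and lower for 2, with a median of 1.07; 8 of 32 rose and 1, Slc13a3, fell. Periportal genes were higher for 10 of 29 and lower for 3, with a median of 0.24; 5 of 30 rose (Ass1, Asl, Cps1, Arg1 and Mfsd2a) and 1, Hsd17b13, fell. The median share of a nucleus' counts went from 0.441 to 0.803% for pericentral and from 1.79 to 2.68% for periportal genes. The shares ran against each other over nuclei, with rho of -0.35 over 75 nuclei at P9 and -0.50 over all nuclei at P18. Cyp2c29, itself a member of the pericentral list, followed that share at P18 (rho 0.56). These correlations are descriptions; the shares come from the same libraries and sum with all other genes to a fixed total.

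Acute phase genes, made by the liver in inflammation, included several of the largest increases. Of 18 described, 11 were at least 2-fold higher and none lower, with a median of 1.495, and 5 of 21 rose: Saa1, Saa2, Orm1, Hamp and Hamp2. Hamp encodes hepcidin, the iron-regulating hormone; it was counted in 5 of 75 nuclei at P9 and 48 at P18, at means of 0.878 and 304.1 CPM, and 4N nuclei went from 0.211 to 560 CPM. Hamp rose (adjusted p = 4.43e-06), while whole cells were at 13.4 CPM at P9 and 10.2 CPM at P18. Hamp2, its paralog and a near-identical copy, had no P9 count and 85.9 CPM at P18, at least 156.9-fold higher in summed counts against the same floor (counting interval from 127.3), and reads may be divided between the 2 genes.
Orm1, an acid glycoprotein gene, went from 1.36 to 156.8 CPM, with 24.6% of its P18 counts in 1 nucleus. Saa1, serum amyloid A, went from 0.895 to 130.8 CPM with 25.5% in 1 nucleus, and its call was lost without the P9 2N pool (adjusted p = 0.0505). In whole cells Saa1 was at 25.4 and 447 CPM (P9 and P18) and Orm1 at 7.49 and 70.99 CPM.
Other secreted proteins were led by the murinoglobulins, protease inhibitors of plasma. Mug1 went from 167.9 CPM in 43 nuclei to 2897 CPM in 99.03% of nuclei and rose by 4.85 ± 0.46 (SE, adjusted p = 0.000102). Mup3, a major urinary protein, went from 6.49 to 133.4 CPM and rose (adjusted p = 5.18e-05); it is 1 of a family of close copies. Of 53 plasma and urinary protein genes 9 were at least 2-fold higher and 5 lower, with a median of 0.04. Over all genes 12.2% were higher and 10.6% lower, with a median of 0.003.

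Of 43 transcription factors and related genes described, 6 were at least 2-fold higher and 4 lower, close to the shares over all genes (12.2 and 10.6%). The test was passed by 1 of 49, Afp, which the list also holds, and over all genes by 1.05% higher and 0.691% lower. In the growth hormone axis 2 of 22 rose (Mup3 and Mup20) and 2 fell. Cux2, a transcription factor, went from 938 to 192.6 CPM (fell by 1.99 ± 0.30, SE, adjusted p = 0.00268). Igfbp2, which binds insulin-like growth factors, went from 879 to 256.3 CPM (adjusted p = 0.0355); its adjusted p was 0.214 without the P9 4N pool, 0.122 without the P9 2N pool, 0.0721 without the P18 4N pool and 0.0908 without the ploidy term. Mup20 was not called with only the 4 pools at P9 and P18 (adjusted p = 0.398).
Of 15 clock genes described, 1 was at least 2-fold higher and 4 lower, with a median of 0.09, beside 12.2 and 10.6% over all genes. The higher one, Cry1, differed by 2.63 in 2N nuclei and by -0.43 in 4N nuclei. Of 18 tested none rose and 1 fell. This was Rora, which went from 2330 to 921 CPM (adjusted p = 0.0159), while whole cells were at 94.6 and 100.9 CPM. That call was lost without any 1 of the 4 pools at P9 and P18 (adjusted p from 0.0627 to 0.186). Arntl, a core clock activator, was at 243.1 and 93.1 CPM and did not pass (adjusted p = 0.148).
Among nuclear long noncoding RNAs 1 of 16 rose, Neat1, and 3 fell, H19, Meg3 and Rian. Neat1, the scaffold of paraspeckles, went from 873 to 2226 CPM, and Malat1, the most abundant of them, was at 22137 and 27442 CPM and did not pass (adjusted p = 0.986).
Cell cycle genes were sparse: 10 of 54 could be described, 1 at least 2-fold higher and 1 lower, and none of 50 passed.

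More of the early response genes, which tissue dissociation can also induce, were lower than higher in P18 nuclei. Of 17 described 9 were at least 2-fold lower and 1 higher, with a median of -1.03, against 0.31 in whole cells, and 2 of 22 fell, Fos and Egr1. Fos went from 121.6 CPM in 38 nuclei to 10.95 CPM in 18 nuclei (adjusted p = 0.00198). Egr1 went from 266.5 to 49.2 CPM (adjusted p = 0.0149), and its call was lost without the P9 2N pool (0.0796) or the P18 4N pool (0.0503); whole cells held 10.1 and 24.04 CPM. The list's median share of a nucleus' counts was 0.271% at P9 and 0.243% at P18. The part of this list in the other results was not tested. The unfolded protein response list had 4 genes higher and 4 lower of 20, beside 12.2 and 10.6% over all genes, and none passed.

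The direction in whole cells was then set beside that in 2N nuclei. Whole cells, a separate set of samples, had 4.7% of 6292 genes at least 2-fold higher and 6.01% (378 genes) lower at P18. Of the 979 genes higher in 2N nuclei, 19.1% were also at least 2-fold higher in cells, and these were 49.7% of the 376 higher in cells among the genes described in nuclei; 13 were at least 2-fold lower. Of the lower genes, 19.4% of the nuclei's list and 45.2% of the cells' list were lower in both, and 5 were higher in cells. Over 7983 genes the differences correlated with r = 0.44, a description across genes, which are not independent replicates. Among genes that passed the test, 86 of those that rose (62.8%) were at least 2-fold higher in cells and 5 lower, and 41 of 89 that fell (46.1%) were at least 2-fold lower and 1 higher.
The exceptions among those calls were Scd1, Elovl6, Id1, Lrrc16a and 1 predicted gene, which rose in nuclei and were lower in cells, and Egr1; all but Lrrc16a and Egr1 were named after their values were seen. Scd1, the stearoyl-CoA desaturase, was at 0.335 and 19.4 CPM in 2N nuclei and differed by -1.97 in cells. Lrrc16a, an actin regulator gene, went from 27.4 to 133.4 CPM in nuclei and was at 4.36 and 0.982 CPM in cells; its call was lost without the P9 4N pool (adjusted p = 0.0809). The differences between nuclei and cells were not tested, and library preparation and counting of the 2 tables cannot be told apart from the compartment.

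**Figure D4:**
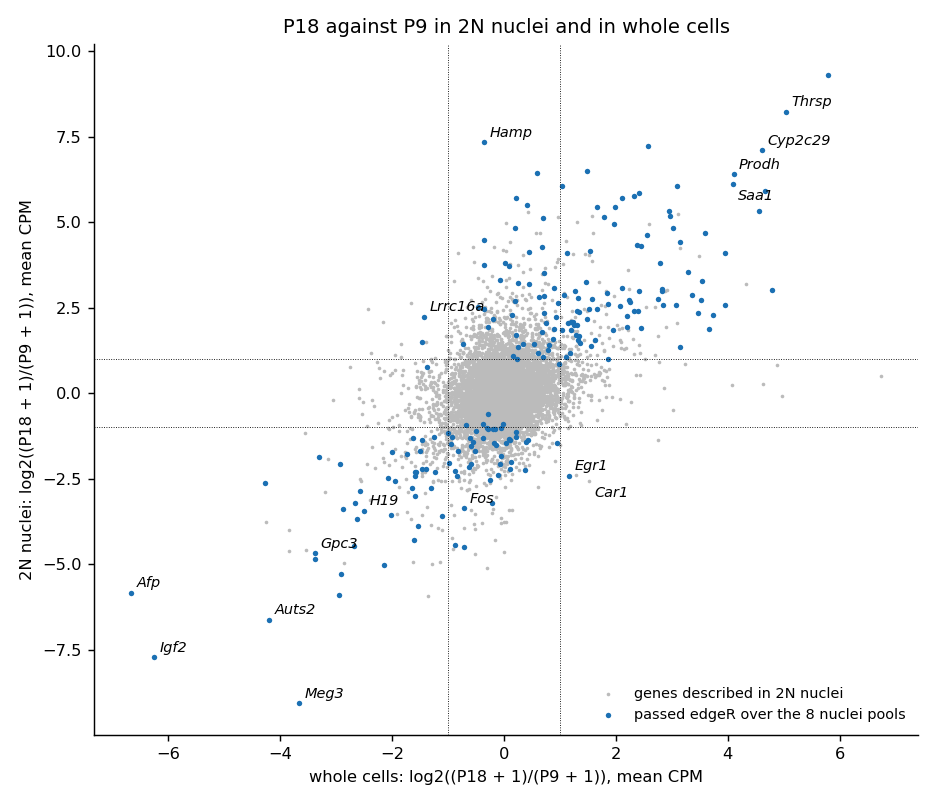
Difference between P18 and P9 (log2, mean CPM plus 1) in whole cells (x) and in 2N nuclei (y) for the genes described in 2N nuclei; blue points passed edgeR over the 8 pools and dotted lines mark 2-fold. Igf2, Afp, Meg3 and Auts2 lie at the lower left and Thrsp and Cyp2c29 at the upper right, while Hamp is high in nuclei (7.34) and near 0 in cells (-0.35).

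Tetraploid nuclei served as the nearest other set. At the same ages 1653 of 8124 genes (20.3%) were at least 2-fold higher in 4N nuclei and 1735 (21.4%) lower, from 21 and 46 nuclei. Of the 2N lists, 516 higher genes (52.7%) and 396 lower genes (46.8%) lay at least 2-fold the same way in 4N nuclei, and 9.70 and 13.2% the opposite way. In 4N nuclei Igf2 went from 257.5 to 0.0598 CPM, Meg3 from 1139 to 1.45 CPM, and Afp from 612 to 8.78 CPM, the same way as in 2N nuclei. These genes passed a test that includes the 4N pools, so their direction there is not separate support. A difference between the ploidies was not tested, since each age has 1 pool of each.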

How the data were processed

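Single 2N and 4N nuclei and single whole hepatocytes were measured by mSTRT-seq; for nuclei, cDNA was amplified for 4 + 16 cycles, per the labels' protocols. The deposited tables hold raw counts per gene and ERCC spike-in, whole numbers that the authors did not normalise. Alignment to GRCm38 or mm10 is named in the submitters' processing notes, with Bowtie2, TopHat2 2.1.0, HISAT2 2.1.0, UMI-tools 0.5.0, HTSeq 0.6.0 and featureCounts 1.5.3 and 2.0.0 but no role for each, so whether the counts are reads or molecules, and whether introns or strand were used, is not given in the sources used here; reads of overlapping or antisense genes may be divided. The 92 ERCC entries were left out of library sizes. Among the nuclei's symbols, 25 had been turned into dates; these were not matched to cells. Columns of other samples (2999) were not used. Gene positions are from GENCODE M21 (GRCm38) and promoters from RefSeq.

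Levels were means of CPM per nucleus, with a pseudocount of 1. Counts were summed per age and ploidy and tested with edgeR 4.0.16 in R 4.3.3 (TMM, filterByExpr, quasi-likelihood F test, two-sided, Benjamini-Hochberg, 3 residual degrees of freedom); the test was tried on simulated data. Shares of nuclei have exact Clopper-Pearson 95% intervals and sums exact Poisson ones (scipy 1.17.1), which cover counting error only, since amplified reads are not independent molecules. Depth per nucleus is in the text. The 2N groups held 75 nuclei at P9 and 103 at P18 (178 in all), with 107 at P0 and 340 at P60, and whole cells numbered 148, 150, 153 and 199 at P9, P12, P15 and P18; edgeR called 137 genes higher and 90 lower. Alternatives changed the level, scaling, pseudocount, filter, nuclei kept, library size, tool (DESeq2 1.42.0) and pools.

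Members, lists and tests were chosen with earlier results of these data known. Named genes were H19 and Igf2, the 12 largest differences each way among genes with at least 50 CPM and detection in 25% of nuclei at the higher age, up to 4 per list at 2-fold or more (the most abundant where none), and the 6 largest that lay 2-fold the other way in whole cells; predicted genes were counted only, and some genes that met the rule are not reported here. Further genes are named because they passed the test in a list, or as examples within one, after their values were seen, and alternatives were not run gene by gene for those. The Smart-seq3 and bulk tables were not used here.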

Additional observations from a re-analysis of the deposited data

Results flagged for a closer look

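Between P9 and P18, 13 genes at least 2-fold higher in 2N nuclei were at least 2-fold lower in whole cells, and 5 lower in nuclei were higher in cells; the differences were not tested. Leaving out predicted genes, the 6 with the largest difference in nuclei are given here. Car1, carbonic anhydrase of red cells, was at 34.4 CPM in 2 nuclei at P9 and 5.02 CPM at P18, a difference of -2.56, against 1.52 in cells. Egr1 differed by -2.41 in nuclei and 1.17 in cells, and Wdr45, an autophagy gene, by -2.38 and 1.28. Lrrc16a differed by 2.24 in nuclei and -1.44 in cells, Alpk2 by 2.09 and -2.16, and Enpp4 by 1.66 and -1.03. Of these, Egr1 and Lrrc16a passed edgeR over the nuclei pools; Car1 rested on 2 nuclei at P9, and 65.01% of the P18 counts of Enpp4 came from 1 nucleus.

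4 named genes lay at least 2-fold in opposite directions in 2N and 4N nuclei, again untested. Rcn2 differed by -4.01 in 2N and 2.87 in 4N nuclei, and S100a8, a neutrophil gene, by 2.11 and -4.17. Car1 differed by -2.56 and 4.91, and Wdr45 by -2.38 and 1.16. None of the 4 passed edgeR over the pools. S100a8 was at 3.94 CPM in 2N nuclei at P9 and 20.4 CPM at P18.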

How the results depend on the processing

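No paired analysis was possible because the numbers in the labels name single nuclei or cells, whose counts were summed per group. The number of genes at least 2-fold higher or lower in 2N nuclei moved by over 1.5 times with the filter, to 17.9 and 12.5% of 15649 genes with none and 7.87 and 7.77% of 3824 genes at 50 CPM or more. The same rule gave 20.3 and 21.4% in 4N nuclei. Other scalings, pseudocounts, library sizes and sets of nuclei gave 9.99 to 14.6% higher and 8.52 to 12.7% lower. Calls over the pools were 4.15% higher and 2.98% lower of 12014 genes with DESeq2, 1.79 and 1.09% of 19045 with no filter, 2.20 and 2.14% of 11249 with only the 4 pools at P9 and P18, 1.13 and 0.768% with RLE size factors and 0.852 and 0.530% without the ploidy term. Leaving out 1 pool gave 0.514 to 1.78% higher and 0.326 to 1.15% lower. At an unadjusted p under 0.05 there were 1634 genes.

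Among named genes, Cyp51 turned from -1.58 to 0.0116 with pooled levels. In 4N nuclei these turned sign: Rcn2 2.87, Cyp7b1 -0.012, Insig1 -0.24, Cyp51 0.46, Sds -0.64, Cry1 -0.43, S100a8 -4.17, Car1 4.91, Wdr45 1.16 and Enpp4 -0.76. The fitted difference turned sign for genes that had not passed: with only the 4 pools for Alpk2 (0.41), Mcm6 (-0.0765) and S100a8 (-2.04), and without the ploidy term for Mcm6 (-0.96). Leaving out 1 pool turned it for 10 genes, with ranges of -1.65 to 2.63 for Alpk2, -2.04 to 10.97 for Car1, -0.22 to 0.84 for Cyp51, -1.63 to 1.84 for Enpp4, -0.0916 to 2.40 for Insig1, -1.68 to 1.59 for Mcm6, -3.64 to 3.12 for Rcn2, -10.16 to 2.38 for S100a8, -0.42 to 0.27 for Uty and -3.62 to 0.37 for Wdr45. S100a8 passed without the P18 2N pool (adjusted p = 0.0219). The cause was not tested. The other fitted values of named genes kept their direction. Counted over the named genes only and all settings, a call was lost 30 times and gained 74 times.

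With 1 sample per age, animals cannot be told apart from age. Genes near 10 CPM rest on few nuclei and counts.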
